A study of Saccharomyces cerevisiae with 24 samples.

Results

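The genes of arginine synthesis in budding yeast (Saccharomyces cerevisiae) are described here across a wild-type strain and 11 strains that each lack 1 ribosomal protein gene. The 8 members, of 5656 genes that a probe set names singly, are ARG2, ARG7, ARG8, ARG3, ARG1, ARG4, CPA1 and YOR302W. They were picked by gene name with earlier results of the same arrays known. The log2 signals below are the values that chose them, so the members' values are a description and no p value of a single member is given. Counts of members past a threshold are printed beside the share of all probe sets past it, and nothing is read from them. Each member had 1 probe set.

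RNA was hybridised to 24 Affymetrix yeast arrays, with 2 biological replicates for each of the 12 strains. The question of the series is whether losing either of the near-identical copies (paralogs) of a ribosomal protein gene has the same consequences. The wild-type strain, BY4741, is haploid, has mating type a and is known to lack working HIS3, LEU2, MET15 and URA3 genes, markers of histidine, leucine, methionine and uracil synthesis. The 4 small subunit deletions were rps0a with rps0b and rps18a with rps18b, and the 7 large subunit deletions were rpl14a and the pairs rpl7a with rpl7b, rpl12a with rpl12b and rpl22a with rpl22b, described in the series as isogenic with the wild type. All strains were harvested in early log phase in the rich medium YPD, which contains arginine, and each strain name stands for 1 deletion strain with no statement of how many clones were used. The 11 comparisons with wild type share the same 2 wild-type arrays, so their values are given side by side.

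Yeast makes arginine from glutamate through ornithine. ARG2, ARG8 and ARG7 act on acetylated intermediates in mitochondria to give ornithine, and ARG3, ARG1 and ARG4 turn ornithine into citrulline, argininosuccinate and arginine in the cytosol. Citrulline needs carbamoyl phosphate, made by an enzyme whose small subunit is CPA1. Some of the ARG genes, not all, are known to be repressed when arginine is present, through the ARG80, ARG81, ARG82 and MCM1 proteins. Gcn4, the transcription factor of general amino acid control, activates ARG genes together with genes of many other amino acid pathways. CPA1 is known for another control: a short reading frame in the leader of its mRNA encodes the arginine attenuator peptide, which stalls ribosomes when arginine is plentiful and exposes the mRNA to decay. YOR302W is the systematic name of that upstream frame. It lies next to CPA1 on chromosome XV and on the same mRNA, so its probe set is another reading of that transcript.

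The 24 arrays had median intensities of 36.1 to 61.2. The background, the 95th percentile of 19 control probe sets, was 5.55 to 30.8 and was highest in rps0a replicate 2. Between 68% and 87.8% of probe sets lay above it. Replicates of a strain correlated at 0.958 to 0.981. All 7 deleted genes that had a probe set of their own fell in their strain (limma adjusted p of 9.80e-06 or less). The a-specific genes MFA1, MFA2, STE2 and BAR1 were above background on 24 of 24 arrays, with median intensities of 500.45 (STE2) to 5924.65 (MFA1). The alpha-specific MF(ALPHA)1 was above it on 23 arrays and STE3 on 17, at intensities of 14 to 44 and 6.9 to 19.2. Of the auxotrophic markers, URA3 was above it on 0 arrays, MET17 (the name used for MET15) on 6, LEU2 on 22 and HIS3 on 24. In 3 strains a chromosome stood out with a raised median over its probe sets, by 0.89 (log2) for chromosome XVI in rpl7a, 0.92 for V in rpl12b and 0.79 for VIII in rpl14a, against -0.15 to 0.13 in the 173 other combinations of strain and chromosome.

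The strains rpl22a, rpl14a and rpl12a had the highest signals of ARG7, ARG3, ARG1 and ARG4. CPA1 and YOR302W were highest in rpl22a and rpl14a, followed by rps0b and rpl12a, whereas ARG2 was highest in wild type and ARG8 in rps0b. The median difference of the 8 members from wild type, on the log2 scale, was 1.84 in rpl22a, 1.15 in rpl14a and 0.91 in rpl12a. It was -0.32 to 0.33 in the other 8 deletions. The median over all probe sets was between -0.01 and 0 in these 3 strains, where the normalization holds it. Members differed among themselves: the strain means of ARG1 spanned 20.7-fold, those of ARG7 6.26-fold, ARG4 5.41-fold, ARG3 4.52-fold, YOR302W 3.36-fold, CPA1 2.97-fold, ARG8 2.69-fold and ARG2 1.59-fold. Past the threshold of limma adjusted p under 0.05 lay 5 members in rpl22a (ARG7, ARG1, ARG4, CPA1 and YOR302W), all higher, beside 2.45% of all probe sets in either direction and 1.42% higher. In rpl14a there were 4 (ARG7, ARG4, CPA1 and YOR302W), beside 3.34% of probe sets, 1.89% of them higher. In rpl12a there were 2 (ARG7 and ARG4), beside 0.291% and 0.108%, and in rps0b 1 (YOR302W), beside 2.62% and 1.02%. In the remaining 7 deletions limma passed 0 members, with 14 of 56 values (25%) at an unadjusted p under 0.05, beside 10.4% of all probe sets. The percentage of all probe sets called there was 6.57 in rpl7a, 0.0323 in rpl7b, 2.1 in rpl12b, 0.0216 in rpl22b, 0.291 in rps0a, 0.668 in rps18a and 0.334 in rps18b. The 12 member calls were 4 without normalization and ran from 7 (without wild-type replicate 1) to 17 (without rps0a replicate 1) with 1 array left out.

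**Figure D1:**
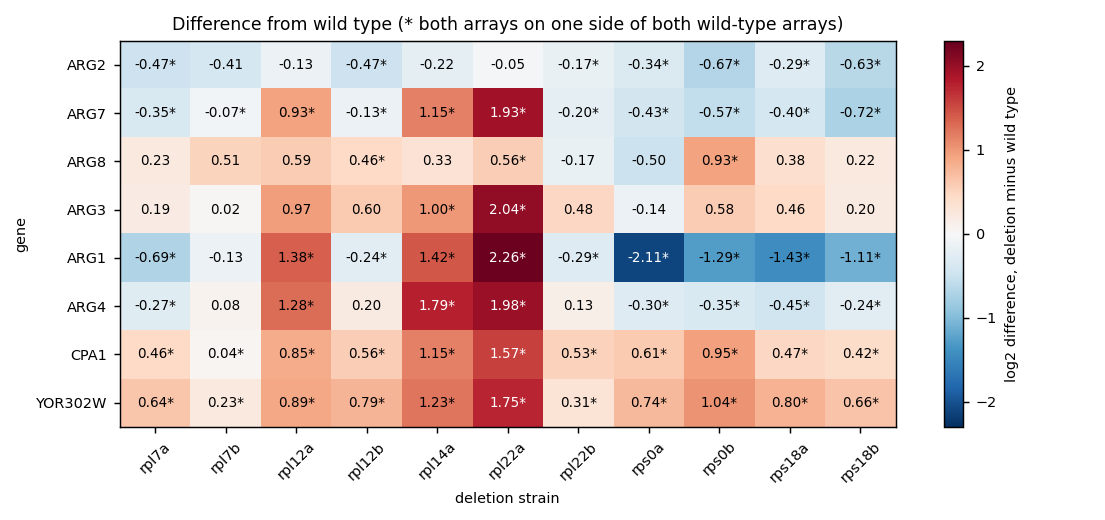
Log2 difference of each deletion strain from wild type (columns) for the 8 arginine genes (rows), with the value in each cell and a star where both arrays of the deletion lay on the same side of both wild-type arrays. The columns rpl12a, rpl14a and rpl22a are high for ARG7, ARG3, ARG1, ARG4, CPA1 and YOR302W, ARG1 is lowest in the 4 small subunit deletions, and the ARG3 values of rpl7a, rpl7b, rpl22b and rps18b come from signals not above background.

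ARG2 encodes acetylglutamate synthase, which starts the ornithine branch. Its intensity was 79.6 and 76.9 in wild type, and over the 22 deletion arrays it ran from 34.7 in rps0b replicate 2 to 113.6 in rpl12a replicate 1. On the normalized scale 18 of those arrays lay below both wild-type arrays and 2 above both. Differences from wild type were -0.67 to -0.05 ± 0.32 (SE) and did not separate rpl22a (-0.05) from the others. In rpl12a the replicates read 113.6 and 40.5, and the strain's difference of -0.13 was 0.29 without replicate 2 and -0.55 without replicate 1.

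ARG8 encodes acetylornithine aminotransferase and gave a dim signal of 9.5 to 40.7, above background on 22 of 24 arrays. That range overlaps those of the marker LEU2 (6.2 to 47.3) and of MF(ALPHA)1 (14 to 44). Lying above background therefore does not by itself show expression. For ARG8 wild type read 21.2 and 12.3, rps0b 29.9 and 31.8, and rps0a 17.3 and 12. The strain means of rps0b (4.91 on the normalized log2 scale) and rps0a (3.48) were the highest and the lowest, and their arrays did not overlap. Of all 9275 probe sets, 1663 likewise had both rps0a arrays below both rps0b arrays. The 12 of rps0a replicate 2 was not above its array background of 30.8. All strains between overlapped with the next in the order. The differences from wild type of ARG8 were -0.50 to 0.93 with an SE of 0.45, and it was 0.56 in rpl22a.

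ARG7, the ornithine acetyltransferase that releases ornithine, was also listed as ECM42. In wild type it read 137.8 and 153.1, in rpl22a 524.9 and 482.3, in rpl14a 352.2 and 309.9, and in rpl12a 396.3 and 182.9. The 4 small subunit deletions read 124.3 and 105 (rps0a), 107.4 and 78.4 (rps0b), 99.2 and 78.5 (rps18a), and 72.3 and 60.6 (rps18b). The remaining large subunit deletions read 96.4 and 104.8 (rpl7a), 133.8 and 129.3 (rpl7b), 132.6 and 110.1 (rpl12b), and 126.5 and 92.7 (rpl22b). After normalization the 6 arrays of rpl22a, rpl14a and rpl12a stood above both wild-type arrays and the other 16 deletion arrays below both. Among all probe sets, the percentage with both deletion arrays below both wild-type arrays was 31 in rpl7a, 17.3 in rpl7b, 19.8 in rpl12a, 21.1 in rpl12b, 29.5 in rpl14a, 27.7 in rpl22a, 14.1 in rpl22b, 22.4 in rps0a, 24 in rps0b, 21.6 in rps18a and 21.3 in rps18b. Against wild type ARG7 was 1.93 ± 0.17 in rpl22a, 1.15 in rpl14a and 0.93 in rpl12a, and its lowest value was -0.72 in rps18b. Strain means put rpl22a apart from rpl14a, whereas rpl14a and rpl12a overlapped.

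ARG3, ornithine carbamoyltransferase, joins ornithine to carbamoyl phosphate. It was above background on 10 of 24 arrays, at 5 to 30.7 over all arrays, a range that likewise overlaps that of LEU2. In rpl22a it read 30.7 and 29.9, in rpl14a 13.5 and 17.7, in rpl12a 25.1 and 8, and in wild type 10.7 and 5, of which only 10.7 was above background. It was not above background on either array of rpl7a, rpl7b, rpl22b and rps18b. The rpl22a arrays were the highest and overlapped with no other strain. Their difference from wild type was 2.04 ± 0.53, but 1.08 with the floor raised to the 25th percentile, 2.65 without wild-type replicate 1 and 1.43 without wild-type replicate 2, which was not above background. Over rpl22b the bound on the fold between the strain means was 2.38, where it is set by the detection limit of the dimmer arrays. That bound is not a minimum over single arrays. The log2 difference from rpl22b was 1.56, and 1.06 without rpl22b replicate 1. Below rpl22a all neighbouring strains overlapped, so the order of the other 11 was not resolved.

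ARG1 encodes argininosuccinate synthetase. It read 97.5 and 94.5 in wild type, 437.1 and 411 in rpl22a, 338.9 and 211.8 in rpl14a, and 346.9 and 174.4 in rpl12a. The 4 small subunit deletions read 54 and 13.2 (rps0a), 31.2 and 43.7 (rps0b), 44.3 and 20.7 (rps18a), and 31.2 and 37.5 (rps18b). Values of 59.5 and 49.1 were read in rpl7a, 87.5 and 79.5 in rpl7b, 83.5 and 67.7 in rpl12b, and 83.7 and 55.1 in rpl22b. On the normalized scale the order of strains had rpl22a highest, rpl14a and rpl12a overlapping, then wild type with rpl7b, rpl12b and rpl22b in an unbroken chain of overlaps, then rpl7a, and the small subunit deletions lowest and overlapping each other. The 4 small subunit means were 4.36 to 5.35 on the normalized log2 scale, and the 8 other means began at 5.78. This split was noticed in these same values, and the share of all probe sets that show it is not given here, so nothing is read from it. Against wild type ARG1 was 2.26 ± 0.54 in rpl22a (4.80-fold), 1.42 in rpl14a and 1.38 in rpl12a. In the small subunit deletions it was -2.11 (rps0a), -1.29 (rps0b), -1.43 (rps18a) and -1.11 (rps18b).

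The ARG1 error was set largely by 1 array, rps0a replicate 2, whose 13.2 lay under its background of 30.8. Without that array the SE of ARG1 was 0.29 and the rps0a difference was -0.88 ± 0.35. The ARG1 values of all 4 small subunit deletions stayed below 0 without normalization, at -1.85, -1.38, -1.66 and -1.49 in the order above.

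ARG4, argininosuccinate lyase, performs the last step. In wild type it read 409.6 and 520.9, in rpl22a 1708.1 and 1397.2, in rpl14a 1904.3 and 1258.7, and in rpl12a 1223.7 and 852.4. The small subunit deletions read 391 and 329.2 (rps0a), 330.2 and 303.1 (rps0b), 251.4 and 256.8 (rps18a), and 251 and 307.7 (rps18b). The other large subunit deletions read 297.1 and 321.2 (rpl7a), 480.7 and 439.1 (rpl7b), 489.8 and 434.7 (rpl12b), and 486.9 and 404 (rpl22b). Normalized signals of rpl22a, rpl14a and rpl12a did not overlap with each other or with any other strain. rpl7a and the 4 small subunit deletions lay below both wild-type arrays. Differences from wild type of ARG4 were 1.98 ± 0.13 in rpl22a, 1.79 in rpl14a and 1.28 in rpl12a, and -0.45 to -0.24 in the small subunit deletions. ARG4 lies on chromosome VIII, which had a median of 0.79 in rpl14a. Relative to that median its difference in rpl14a was 1.00, and 12 of the 297 probe sets of the chromosome stood higher. None of the other 7 members lies on the shifted chromosome of a strain.

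**Figure D2:**
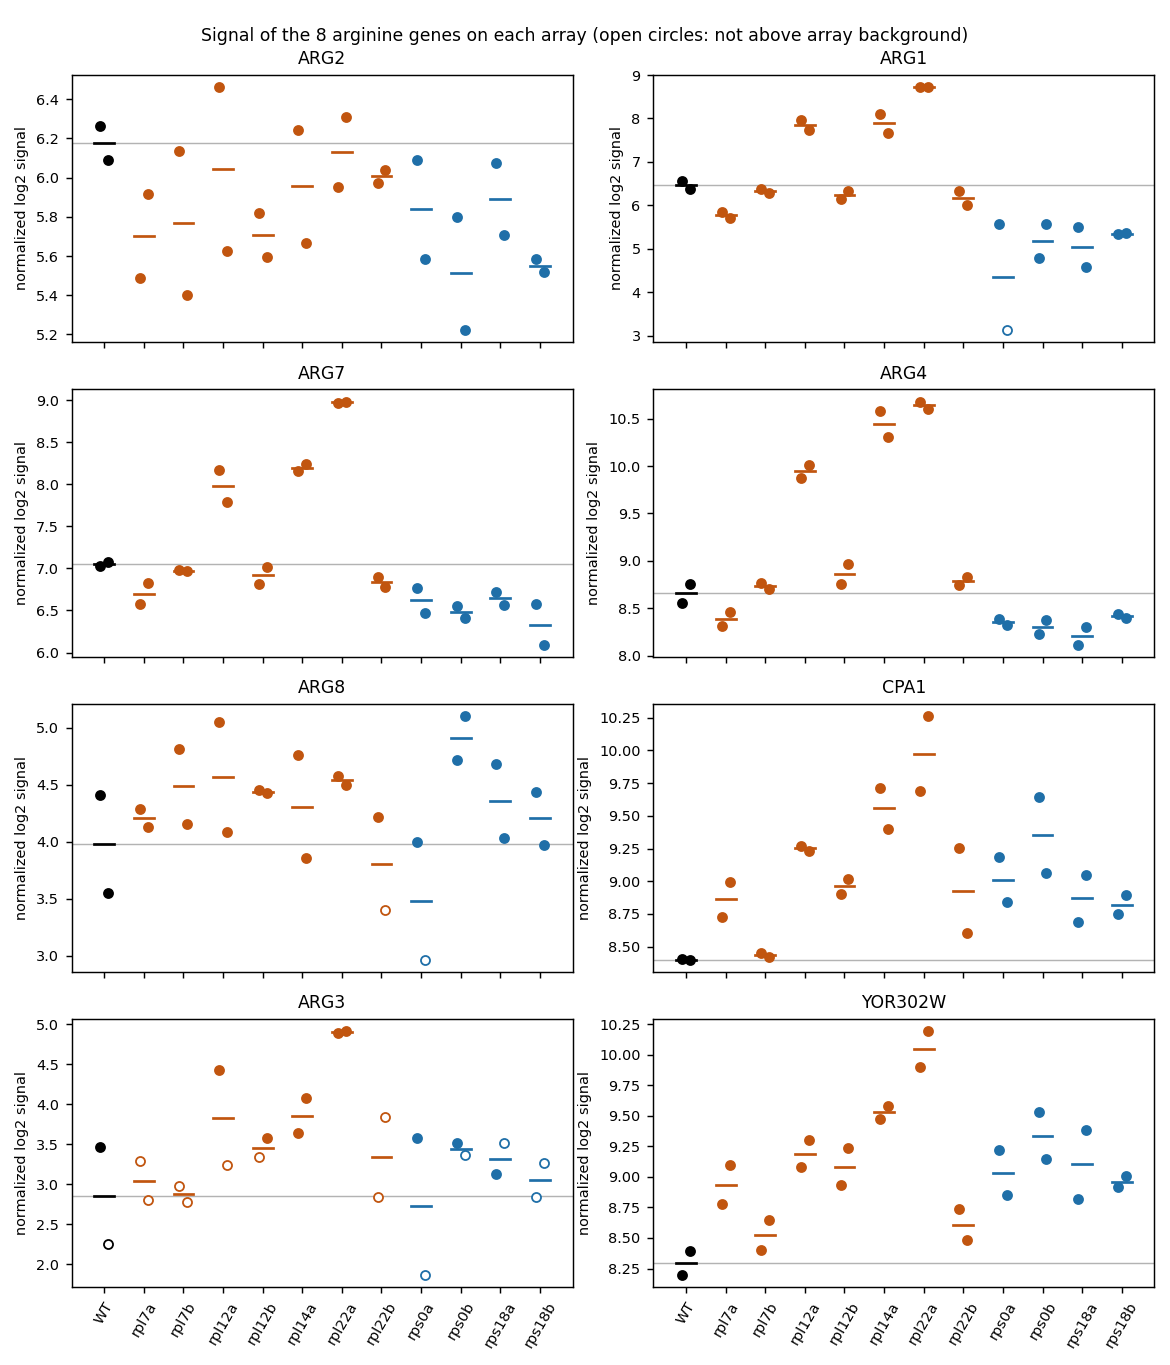
Normalized log2 signal (vertical axes, a separate scale per gene) of the 8 arginine genes on each array of the 12 strains (horizontal axes), with wild type in black, large subunit deletions in orange and small subunit deletions in blue. Each circle is an array, filled where above and open where not above the array background, short bars are means of 2 arrays and grey lines wild-type means; ARG1, ARG4 and ARG7 separate upward in rpl12a, rpl14a and rpl22a and lie below wild type in the small subunit deletions, and CPA1 and YOR302W lie above wild type in all 11 deletions.

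CPA1, the carbamoyl phosphate synthetase subunit, followed another order of strains. It read 368.6 and 402.2 in wild type, 859.4 and 1100.2 in rpl22a, 999 and 684.4 in rpl14a, and 838.8 and 521.2 in rpl12a. The small subunit deletions read 659.1 and 465.3 (rps0a), 804.3 and 485.7 (rps0b), 362 and 427.3 (rps18a), and 312.2 and 430.2 (rps18b). The remaining strains read 392.2 and 462.7 (rpl7a), 383.3 and 357.5 (rpl7b), 534.5 and 454 (rpl12b), and 702.8 and 343 (rpl22b). On the deposited scale rpl7a, rpl7b, rpl22b, rps18a and rps18b overlapped with wild type. After quantile normalization all 22 deletion arrays stood above both wild-type arrays, while without normalization the CPA1 difference was -0.06 in rpl7b and -0.07 in rps18b and above 0 in the other 9.

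YOR302W, the upstream frame, gave 320.2 and 400.2 in wild type, 978.7 and 1063.8 in rpl22a, 875.1 and 763.3 in rpl14a, and 740.2 and 539 in rpl12a. In the small subunit deletions it read 672.6 and 467.6 (rps0a), 742.8 and 510 (rps0b), 391.4 and 529.7 (rps18a), and 349.6 and 468.5 (rps18b). The other deletions read 404.5 and 494.7 (rpl7a), 368.8 and 422.7 (rpl7b), 544.3 and 527.7 (rpl12b), and 483 and 314.3 (rpl22b). On the deposited scale rpl7b, rpl22b, rps18a and rps18b overlapped with wild type. All 22 deletion arrays again lay above both wild-type arrays after normalization. The margin was small for rpl7b replicate 1, at 8.399 against 8.393 in wild-type replicate 2. All 11 differences of YOR302W were above 0 without normalization, quantile normalized or median centred. For scale, the percentage of all probe sets with both deletion arrays above both wild-type arrays was 23.3 in rpl7a, 16.4 in rpl7b, 18.7 in rpl12a, 20.6 in rpl12b, 21.4 in rpl14a, 21.6 in rpl22a, 14.6 in rpl22b, 19.3 in rps0a, 22.8 in rps0b, 22.2 in rps18a and 25.1 in rps18b. Differences from wild type of CPA1 and YOR302W were 1.57 ± 0.25 and 1.75 ± 0.22 in rpl22a, 1.15 and 1.23 in rpl14a, 0.85 and 0.89 in rpl12a, 0.95 and 1.04 in rps0b, and 0.04 and 0.23 in rpl7b. In the other 6 strains CPA1 was 0.42 to 0.61 and YOR302W 0.31 to 0.80.

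Scaling moved the level against which these values are read. Without normalization the median of all probe sets was -0.17 in rpl7a, -0.14 in rpl12b, -0.18 in rpl22b, -0.25 in rps18a and -0.36 in rps18b, and with median centring it was -0.11 in rps0a. The difference between 2 genes on the same array is not moved by a constant scale of the array. The mean of CPA1 and YOR302W was therefore set against the mean of ARG7, ARG1 and ARG4 on each array. The grouping was chosen after the values were seen. The gap was taken on quantile normalized values, and that normalization is not a constant scale. In rpl7a it moved CPA1 from 0.15 to 0.46 and ARG1 from -0.83 to -0.69. Relative to wild type the gap was 1.73 ± 0.53 in rps0b (SD of 2 arrays), 1.62 ± 0.41 in rps0a, 1.40 ± 0.54 in rps18a and 1.23 ± 0.21 in rps18b. The 2 arrays of rps0a gave 1.33 and 1.91, and on the second, replicate 2, ARG1 was not above background. In rpl7a the gap was 0.98 ± 0.15, in rpl12b 0.73 ± 0.01, in rpl22b 0.54 ± 0.24 and in rpl7b 0.17 ± 0.12. It was below 0 in rpl22a (-0.40 ± 0.32), rpl12a (-0.33 ± 0.18) and rpl14a (-0.26 ± 0.07). In the 4 small subunit deletions CPA1 and YOR302W were thus higher relative to ARG7, ARG1 and ARG4 than in wild type. With quantile normalization CPA1 stood above wild type in these strains and the other 3 genes below it, whereas without normalization CPA1 was 0.03 in rps18a and -0.07 in rps18b. The wild-type arrays had a gap SD of 0.05.

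**Figure D3:**
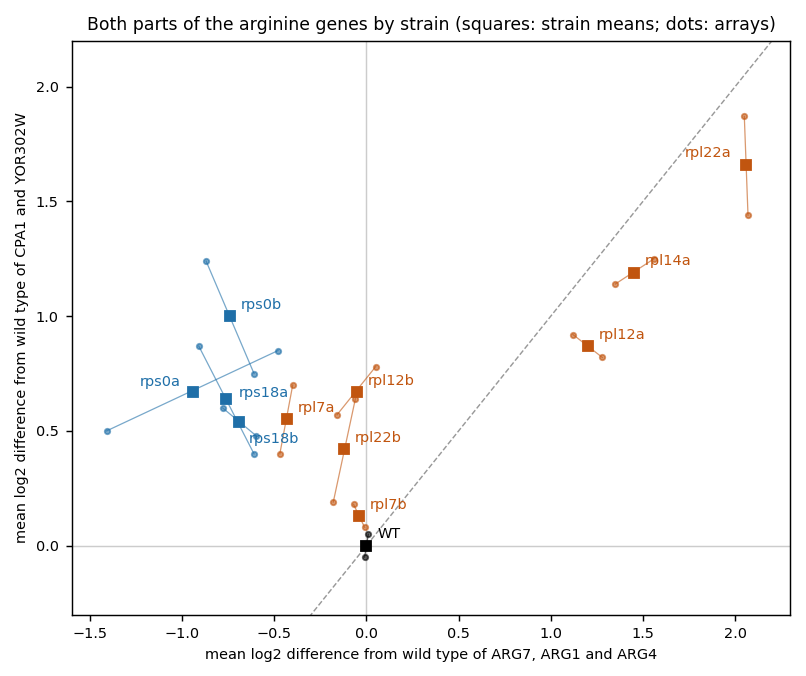
Mean log2 difference from wild type of ARG7, ARG1 and ARG4 (horizontal axis) against that of CPA1 and YOR302W (vertical axis), with squares for strain means and dots joined to them for the 2 arrays, in black for wild type, orange for large and blue for small subunit deletions. The 4 small subunit deletions and rpl7a lie to the left of wild type and above it. So do rpl12b, rpl22b and rpl7b, nearer on the horizontal axis at -0.05, -0.12 and -0.04. The strains rpl22a, rpl14a and rpl12a lie to the right and just below the dashed line of equal difference. On rps0a replicate 2 ARG1 was not above background.

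The members also differed in how they varied together. Because rpl22a, rpl14a and rpl12a stood apart, correlations of strain means were taken over the other 9 strains, a choice made after seeing the values, and all points share the arrays and their normalization. Over these 9 strains Pearson's r was 0.87 for CPA1 with YOR302W, 0.82 for ARG1 with ARG4 and 0.75 for ARG7 with ARG1. It was -0.69 for ARG1 with YOR302W and -0.72 for ARG7 with YOR302W. Over all 12 strains these values were 0.46 and 0.64, so their sign rests on the 3 strains left out. The difference between the 2 replicates of a strain, over 12 strains, correlated at 0.85 (Spearman 0.80) for CPA1 with YOR302W. Over all 28 pairs of members Pearson's r of these differences ran from -0.14 to 0.85 with a median of 0.19. For ARG8 with ARG1 it was 0.66 (Spearman 0.82). CPA1 and its upstream frame thus varied together between replicates of the same strain as well as between strains. Whether the culture or the array set the replicate differences was not tested.

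Between paralogous deletions the members' values lay widest apart for RPL22, with a median difference of 1.5. The medians were 0.36 for RPL12, -0.32 for RPS0, -0.17 for RPL7 and 0.15 for RPS18. The SD between replicate arrays of the member median was 0.15, so the order of RPL12 and RPS0 was not resolved. Between rpl22a and rpl22b all 8 members were higher in rpl22a, 7 with arrays that did not overlap, beside 20.1% of all probe sets. The differences were 2.55 ± 0.54 for ARG1, 2.14 ± 0.17 for ARG7, 1.86 ± 0.13 for ARG4, 1.44 ± 0.22 for YOR302W and 1.04 ± 0.25 for CPA1, and these 5 passed the threshold, beside 2.82% of all probe sets in either direction and 1.74% higher in rpl22a. Between rpl12a and rpl12b the median was 0.36, and ARG7 (1.06) and ARG4 (1.08) passed, beside 1.65% and 0.55%. ARG1 was 1.62 ± 0.54 there, whereas CPA1 was 0.29 ± 0.25 and YOR302W 0.11 ± 0.22. Of the other pairs limma passed 0 members, beside 5.35% of probe sets for rpl7a against rpl7b, 0.0863% for rps0a against rps0b and 0.0108% for rps18a against rps18b; at an unadjusted p under 0.05 there were 1, 1 and 0, beside 17.5%, 8.45% and 4.81% of probe sets. RPL14B was not deleted in a strain used here, so rpl14a had no partner.

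Arginine regulation, transport, breakdown and neighbouring pathways were read from a list of 28 genes, of which 26 were measured. ARG5,6, which encodes the enzymes between ARG2 and ARG8, was not analysed here. Over the 11 comparisons 1 gene rose and 4 values fell, 1.75% of 286, beside 1.7% of all probe sets. CAR2, ornithine transaminase of arginine breakdown, fell by 1.20 ± 0.20 in rpl7a (limma adjusted p = 0.00293) and by 0.83 ± 0.20 in rps0b (0.0481). GAP1, the general amino acid permease, fell by 1.15 ± 0.27 in rps0b (0.0431), and GDH1, a glutamate dehydrogenase, fell by 0.97 ± 0.23 in rpl7a (0.021). PRO3, of proline synthesis, rose by 0.97 ± 0.14 in rpl12b (0.00439), where its chromosome V had a median of 0.92. Both rps0b calls were lost without any 1 of the 4 arrays compared and with log2(value + 1), and that of GAP1 also without normalization. The GDH1 call was lost without either wild-type array or rpl7a replicate 2, and the PRO3 call without normalization and with median centring.

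In rpl22a, rpl14a and rpl12a limma passed 0 of these 26 genes, with 6, 2 and 0 at an unadjusted p under 0.05 beside 15.1%, 15.8% and 8.59% of all probe sets, and the list medians were -0.07, -0.06 and -0.04. ORT1, the mitochondrial ornithine exporter, ran from -0.32 in rpl22b to 0.91 in rpl22a (lowest adjusted p = 0.114). CAR1, arginase, ran from -0.72 in rps0b to 0.27 in rpl12b (0.0519), and CAN1, the arginine permease, from -0.15 in rpl22b to 1.14 in rpl12b (0.0961), on chromosome V. The regulator genes ran from -0.43 to 0.45 for ARG80 (0.475), from -0.07 to 0.55 for ARG81 (0.418) and from -1.18 to -0.19 for ARG82 (0.0575).

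Genes of other amino acid pathways and of general amino acid control formed a list of 52, of which 51 were measured. Over the 11 comparisons 7.49% of their 561 values were called, beside 1.7% of all probe sets. In rpl22a 15 genes rose and 0 fell, beside 2.45% of all probe sets in either direction and 1.42% higher. In rpl14a 11 rose and 1 fell, beside 3.34% and 1.89%. In rpl12a limma passed 0, beside 0.291%, with 18 at an unadjusted p under 0.05 beside 8.59% of all probe sets. With the floor at the 25th percentile, a block for replicate number, or limma's trend and robust options, 3 rose and 1 fell in rpl12a. The list medians were 0.45, 0.27 and 0.18. In rpl22a the called genes with the widest differences were LYS1, saccharopine dehydrogenase of lysine synthesis (1.92 ± 0.19, limma adjusted p = 0.000104), LEU4, of leucine synthesis (1.62 ± 0.33, 0.0187), HIS5, of histidine synthesis (1.37 ± 0.22, 0.00465), and ARO3, of aromatic amino acid synthesis (1.28 ± 0.19, 0.00288). In rpl14a they were LYS1 (1.41, 0.00103), the branched-chain aminotransferase gene BAT1 (1.33 ± 0.14, 0.000112), LEU1 (1.17 ± 0.17, 0.00161) and LYS12 (0.92 ± 0.17, 0.00992). Without normalization the calls named above were lost except LYS1 in both strains and BAT1 in rpl14a. The LEU4 call was also lost without either wild-type array or rpl22a replicate 2, and the LYS12 call with median centring and without either wild-type array or rpl14a replicate 1. BAT1 lies on chromosome VIII, as ARG4 does, and exceeded its median by 0.54. THR1, another of the 11 that rose in rpl14a, also lies on chromosome VIII and exceeded that median by 0.08. The counts of genes that rose were 1 in rpl22a and 2 in rpl14a without normalization, and 5 and 3 with median centring. Leaving out an array gave in rpl22a 8 (without wild-type replicate 1), 9 (without wild-type replicate 2 or rpl22a replicate 2) or 11 (without rpl22a replicate 1). In rpl14a it gave 3 without either wild-type array or rpl14a replicate 1 and 6 without rpl14a replicate 2.

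In rpl22a against rpl22b, 17 of the 51 genes were higher and 0 lower. Of all probe sets 2.82% were called in either direction and 1.74% higher. Without normalization 1 of the 51 genes was higher, and with median centring 3. Leaving out an array gave 9 (without rpl22a replicate 1 or rpl22b replicate 2), 10 (without rpl22a replicate 2) or 14 (without rpl22b replicate 1). In rpl7a 3 rose and 6 fell, beside 6.57% of all probe sets called, and BAT2 fell most, at -1.61 ± 0.15. Of the 3 that rose 1, MET16 (1.01 ± 0.26), lies on chromosome XVI. The MET16 call was lost without normalization, where 0 of the 51 genes rose in rpl7a and 3 fell. With median centring 1 rose and 7 fell. In rpl12b 4 rose, beside 2.1% of all probe sets called: GCN4, HIS1 (1.18), HOM3 (1.03) and TRP2 (0.84), all on chromosome V. Without normalization 0 rose in rpl12b, and with median centring 1. In rps0b and rps18a BAT2 fell, by 0.78 ± 0.15 (limma adjusted p = 0.0178) and 0.70 ± 0.15 (0.0493). Both calls were lost without any 1 of the 4 arrays compared. Of all probe sets 2.62% and 0.668% were called in these strains. In rpl7b, rpl22b, rps0a and rps18b limma passed 0, beside 0.0323%, 0.0216%, 0.291% and 0.334% of all probe sets. At an unadjusted p under 0.05 there were 0, 1, 5 and 4, beside 2.67%, 4.31%, 11.8% and 10.6% of all probe sets.

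GCN4 mRNA rose in rpl22a by 0.68 ± 0.12 (limma adjusted p = 0.0089), in rpl7a by 0.44 ± 0.12 (0.0452) and in rpl12b by 1.00 ± 0.12 (0.00112, on the shifted chromosome V). In rpl7a it stood at -0.02 without normalization and 0.10 with median centring, and the call was lost without any 1 of its 4 arrays. The rpl22a and rpl12b calls were lost without normalization (0.40 and 0.66) and with median centring (0.48 and 0.76), and that of rpl22a also without wild-type replicate 1 or rpl22a replicate 2. It was 0.56 in rpl12a (0.0815), 0.41 in rpl14a (0.0923) and 0.42 in rps0b (0.087), none past the threshold. GCN4 is known to be controlled mainly in translation, which these arrays do not measure.

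**Figure D4:**
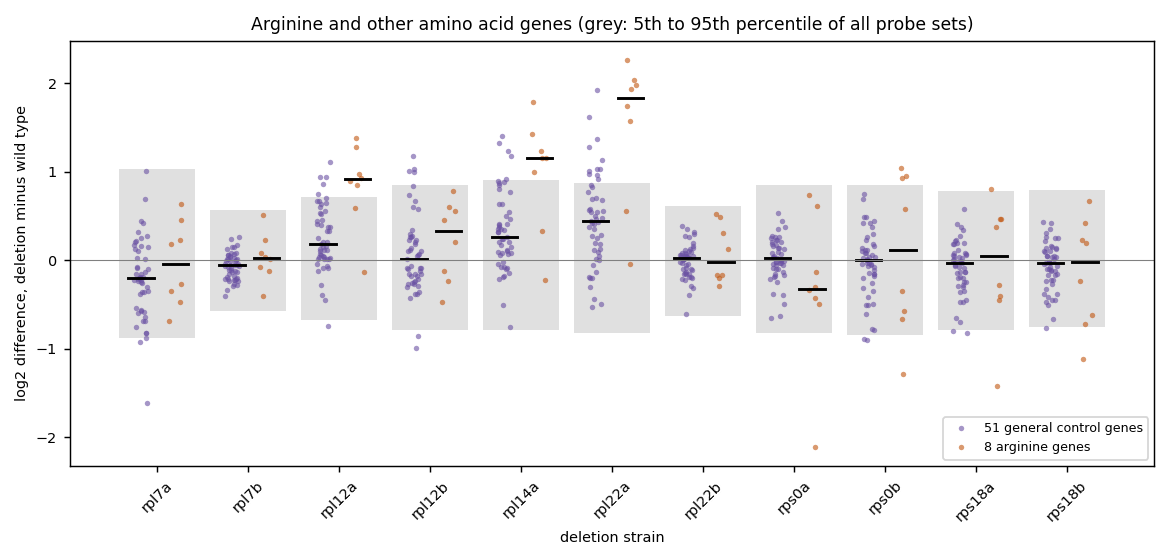
Log2 difference from wild type (vertical axis) in each deletion strain (horizontal axis) for the 51 general control genes (purple) and the 8 arginine genes (orange), each dot a gene, black bars the list medians and grey boxes the 5th to 95th percentile of all probe sets. The arginine medians stand above the general control medians in rpl12a (0.91 against 0.18), rpl14a (1.15 against 0.27) and rpl22a (1.84 against 0.45).

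The genes whose strain means were most like the mean of the 7 enzyme genes, YOR302W left out, were sought among 4975 genes above background in every strain, by Pearson's r over 12 strain means. They were ARO3 (0.960), HIS5 (0.957), HOM2 (0.944), UGA3 (0.934), STR2 (0.932), ARO5 (0.932), AAT2 (0.931), HIS3 (0.926), ARG80 (0.920) and LYS1 (0.919). HIS3 is a marker gene that does not work in this strain background but was above background on all arrays. The order rests on few strains: 4 of these 10 were among the 10 highest without rpl22a, and 1 of 10 by Spearman's correlation. For ARG1 alone the most alike were HIS5 (0.955), HIS4 (0.935), UMP1 (0.914), APS3 (0.907) and ATG41 (0.903).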

How the data were processed

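For each of 24 arrays of 12 strains (2 each) the authors deposited a linear intensity per probe set. For their probe summary and array scaling a method is not given in sources used here. The tables hold 9335 probe sets. Of these, 60 controls were set aside for testing, leaving 9275, of which 6504 carry 1 gene name, 328 several and 2443 none. Names came from the platform annotation, and RefSeq gene records matched by gene identifier gave the current names and the chromosomes. From the deposited intensities, values under 3.6 (the 10th percentile, 9.89% of values) were raised to it, log2 values were taken, and arrays were quantile normalized. Differences of log2 means come from 1 limma fit of 12 group means (limma 3.58.1, R 4.3.3, data.table version 1.17.8; 12 residual degrees of freedom), with Benjamini-Hochberg adjustment over 9275 probe sets and a threshold of 0.05. A gene with several probe sets was read by the brightest on average. A bound on a fold uses the lowest signal among probe sets above background on the dimmer arrays, or the probe set's own where higher.

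The members, both lists and the alternatives were chosen with earlier results of these data known. Named were all members; ORT1, CAR1, CAR2, CAN1, GCN4, ARG5,6 and called genes of the arginine list; up to 4 called general control genes per comparison with the widest differences; and the 10 and 5 genes of highest likeness. ARG81 and ARG82 were added after their values were seen, as regulators of some of the ARG genes. Each array was also left out in turn, a replicate block was added, fits used just the 4 arrays of a comparison or limma's robust and trend settings, dim probe sets (25%) were dropped, the floor was raised or replaced by log2(value + 1), and arrays were centred on medians or not normalized. The fit was tested on simulated data. The number of arrays, 2 a strain, limits the precision. Replicate numbers were not taken as pairs, since the sources used here name no shared culture day or batch. Differences between replicates 1 and 2 correlated at -0.01 to 0.19 over 66 pairs of strains, with 19 over 0.1. These values lean above 0 and are no ground for leaving out a pairing. With the replicate block 2712 probe sets were called, against 1736 without it. What the replicate numbers share was not tested.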

Additional observations from a re-analysis of the deposited data

Results flagged for a closer look

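The paralogous deletions differed in 5 values of the arginine list outside the members, each by limma's test of the difference itself. The share of all probe sets called was 5.35% for the RPL7 pair, 1.65% for RPL12 and 2.82% for RPL22. For RPS0 it was 0.0863% and for RPS18 0.0108%. CAR2 was lower in rpl7a than in rpl7b, at -1.27 ± 0.20 (adjusted p = 0.00229), and lower in rpl22a than in rpl22b, at -0.94 ± 0.20 (0.0242). GDH1 was lower in rpl7a than in rpl7b, at -1.06 ± 0.23 (0.0159). ORT1 was higher in rpl22a than in rpl22b, at 1.22 ± 0.28 (0.0314). PRO3 was lower in rpl12a than in rpl12b, at -0.95 ± 0.14 (0.0053), and lies on chromosome V, which had a median of 0.92 in rpl12b. Fits to only the 4 arrays compared gave none of these calls. The CAR2 difference between rpl22a and rpl22b was also lost without any 1 of their 4 arrays, that of ORT1 without normalization, either rpl22a array or rpl22b replicate 2, that of GDH1 without normalization, either rpl7b array or rpl7a replicate 2, and that of PRO3 without normalization, with median centring and without rpl12a replicate 2. With 2 arrays a strain no group was large enough for a search for single arrays that stand apart.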

How the results depend on the processing

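The member medians of rpl14a (1.14 to 1.20) and rpl7b (-0.08 to 0.08) moved by less than the replicate SD under all alternatives run. Without normalization the medians were -0.19 in rpl7a, 0.18 in rpl12b, 1.63 in rpl22a, -0.18 in rpl22b, -0.16 in rps0a, -0.26 in rps18a and -0.40 in rps18b. With the floor at the 25th percentile (14.1) they were 0.10 in rpl12b, 1.66 in rpl22a, -0.18 in rps0b and -0.14 in rps18a. Without the dimmest 25% of probe sets, which drops members too, they were -0.27 in rpl7a, -0.17 in rpl22b, -0.35 in rps0b, -0.29 in rps18a and -0.24 in rps18b. Leaving out 1 array gave -0.27 to 0.05 in rpl7a, -0.03 to 0.08 in rpl7b, 0.79 to 1.09 in rpl12a, 0.01 to 0.38 in rpl12b, 1.14 to 1.20 in rpl14a, 1.71 to 1.92 in rpl22a, -0.15 to 0.12 in rpl22b, -0.58 to -0.03 in rps0a, -0.14 to 0.24 in rps0b, -0.25 to 0.13 in rps18a and -0.31 to 0.04 in rps18b. Member calls against wild type numbered 12, but 4 without normalization, and 7 (without wild-type replicate 1) to 17 (without rps0a replicate 1) with 1 array left out. Member calls between paralogs numbered 7, but 4 without normalization, and 5 to 9 with 1 array left out. Calls of other arginine genes numbered 5, but 3 with log2(value + 1) and 2 (without either wild-type array) to 10 (without rps0a replicate 1). General control calls numbered 42 (33 higher), but 8 (3 higher) without normalization, 21 (10 higher) with median centring, and 15 (without wild-type replicate 1), 16 (without replicate 2) to 45 with 1 array left out. Of all probe sets 1736 were called, but 929 without normalization (225 higher, against 929 in the reported setting), and 633 to 2474 with 1 array left out. With only the 4 arrays compared, limma called 0 members against wild type, 0 between paralogs, 0 other arginine genes, 0 general control genes and 14 probe sets, since 2 residual degrees of freedom remain. The replicate block gave 15 other arginine calls, 57 general control calls, 2712 probe sets, and 12 and 7 member calls. GCN4 in rpl7a was -0.02 without normalization. Of the 10 genes most like the members, 1 was shared with Spearman's correlation, 4 without rpl22a and 6 with median centring. Without genes of the shifted chromosomes, chosen after seeing the data, 4 other arginine and 35 general control calls were made. Apart from the reasons given, the cause was not tested. ARG3 and ARG8, near the background, limit what the medians show.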
